A study of Mus musculus with 9 samples.

Results

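The 9 genes described here encode the transcription factors best known for driving a mesenchymal state: the homeobox factors Prrx1 and Prrx2, the basic helix-loop-helix factors Twist1 and Twist2, the zinc finger repressors Snai1 and Snai2, the zinc finger and homeobox repressors Zeb1 and Zeb2, and the Runt domain factor Runx2. They were chosen by name, with results of these arrays known, as 9 of the 20690 genes measured, and each has a row of its own in the gene table. Because the choice was made from these values, the levels and changes of the 9 factors below are a description, and nothing is supported by their counts.

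In an epithelial to mesenchymal transition, cells loosen their junctions and become motile. Snail, Zeb and Twist factors bind short E-box sequences and turn off junction genes such as Cdh1, which encodes E-cadherin, while matrix and cytoskeleton genes come up. The same factors act in the embryo in neural crest and mesoderm, several of them are also expressed in neural progenitors, and in glioma they are known for their link to invasion and to the mesenchymal class of tumours. The TGF-beta pathway is a major input that turns these factors on, and the miR-200 family and the Zeb factors repress each other.

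RNA was read on 9 Affymetrix Mouse Gene 1.0 ST arrays, 3 for each of 3 groups of cultures from the subventricular zone, a stem cell niche of the mouse brain that had been electroporated with plasmids. The Erbb2 lines are gliomas made with EGFP-P2A-Erbb2 V664E, an activated receptor tyrosine kinase, and the Hras lines are gliomas made with EGFP-Hras G12V, an activated GTPase that acts downstream of such receptors. The neural stem and progenitor cultures (NSC) had no oncogene: NSC 1 carried a membrane EGFP, NSC 2 carried Histone 3.3-EGFP, and NSC 3 carried neither. All 9 cultures received TagBFPnls-V5, a nuclear blue protein, and pBase, grew without serum in medium with EGF, FGF and heparin, and were sorted by fluorescence. Per the treatment protocol the sort was for high GFP, while the description of NSC 3 names a BFP sort and its source name an EGFP purification, a conflict the labels do not settle. The mice were CD1, except for NSC 3, which came from C57/Bl6 mice with a floxed Dnm2 gene and, by its description, no Cre. The labels give no ages, and nothing in them ties the lines to different mice. Every p-value here therefore reflects only how much these cultures vary, which may be technical. They are lines grown in dishes with growth factors, not tumours, and in such bulk RNA fewer cells expressing a gene and less RNA per cell cannot be told apart.

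The values are log2 levels as deposited, so that a difference of 1 is a doubling, and levels are compared only within a gene. The median level over all genes was 6.56 to 6.73 on the Erbb2 arrays, 6.98 to 7.19 on the Hras arrays and 6.56 to 6.81 on the NSC arrays. Taken gene by gene, the median change was 0.16 for Hras lines against NSC, -0.14 for Erbb2 lines against NSC and 0.29 for Hras against Erbb2 lines. With each array centred on its median these were -0.23, -0.11 and -0.13. For the mean of both glioma groups against NSC the median change was 0.01 as deposited and -0.17 with centred arrays. As a guide to dim signals, the 95th percentile of the 1097 olfactory receptor genes was taken on each array, 5.31 to 6.30. Of the neural stem cell markers, 10 of 12 were above that limit on all 9 arrays. With limma and a threshold of 0.05 on p-values adjusted by Benjamini-Hochberg over the whole table, 73 genes were called for both glioma groups against NSC, 53 higher and 20 lower. The split turned with the scaling, to 2 higher and 10 lower after quantile normalization and to 8 higher and 15 lower with centred arrays.

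Prrx1, Twist1 and Runx2 were the factors whose levels in all 6 glioma lines lay above all 3 NSC cultures. The same held for 2.87% of all genes. Prrx1 stood furthest apart, about 7-fold higher, followed by Twist1 at about 2.6-fold and Runx2 at about 1.9-fold. Only the Prrx1 change was called with limma, and that call was lost with quantile normalization and with centred arrays. Snai1, Snai2, Twist2 and Zeb2 were high in some lines and at the NSC level in others, Zeb1 was alike in the 3 groups, and Prrx2 was lower than in NSC in most lines. These statements are taken up factor by factor below.

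**Figure D1:**
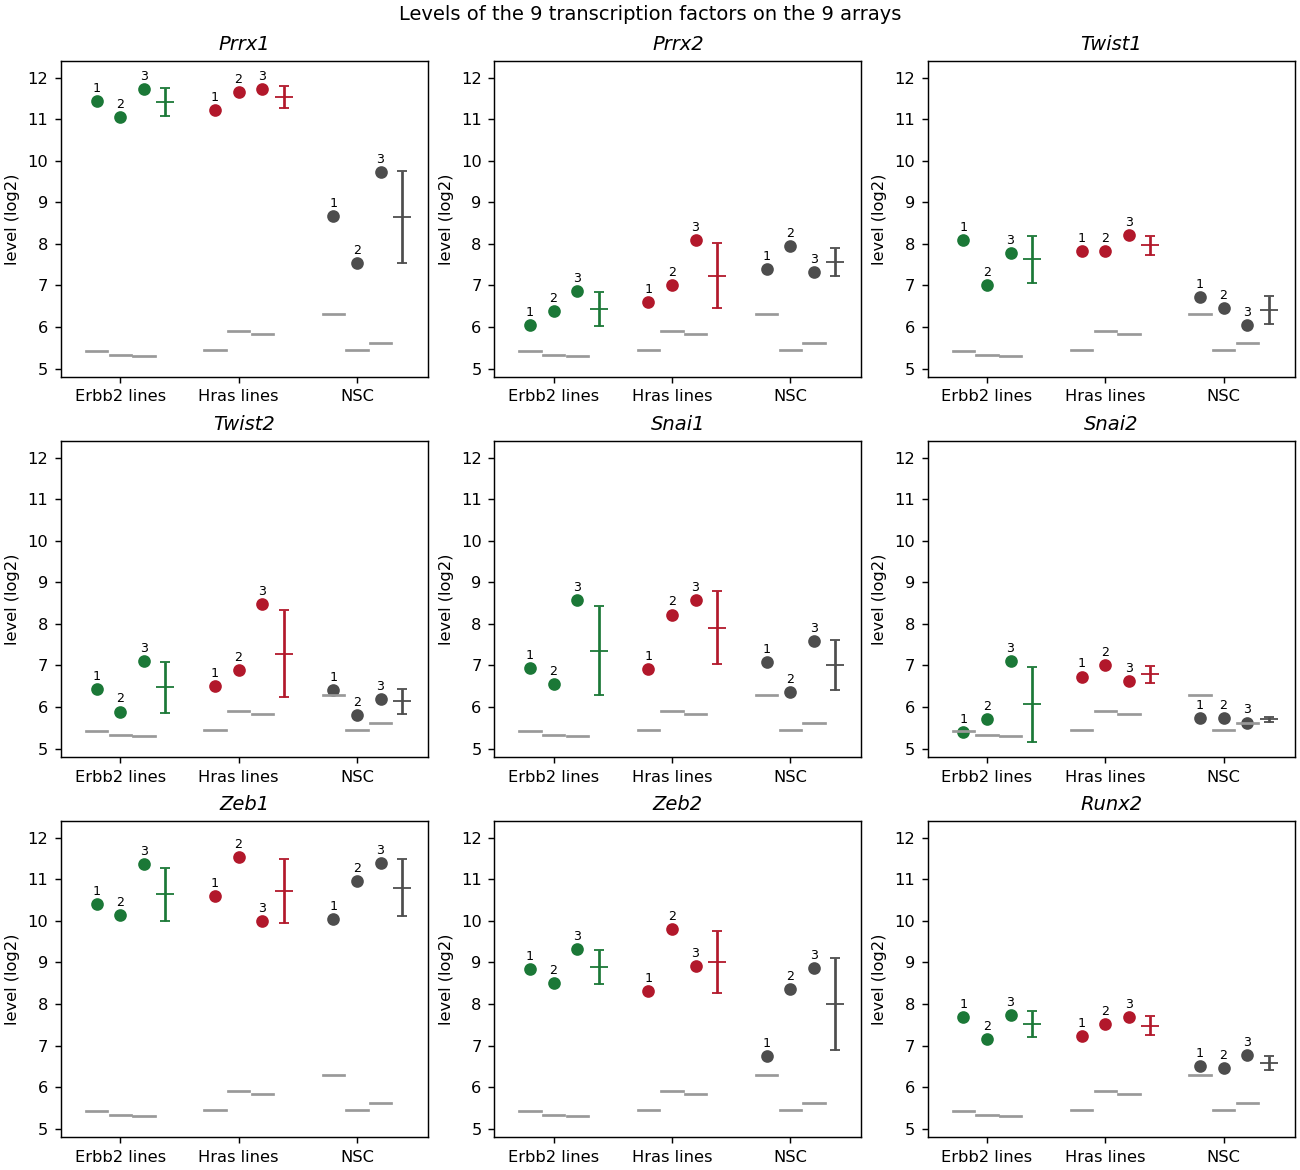
Log2 level of each factor on each array (vertical axis, same scale in all panels), by group, with the array number above the point. The bar beside each group is its mean ± SD over 3 arrays, and the grey ticks are the dim limit of each array. Prrx1 shows all 6 glioma lines between 11.06 and 11.73 and NSC between 7.54 and 9.74, while the Zeb1 groups lie over each other.

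Prrx1, which marks and maintains mesenchymal progenitors of the limb and face, read 11.43, 11.06 and 11.73 in Erbb2 lines 1, 2 and 3, and 11.22, 11.65 and 11.72 in Hras lines 1, 2 and 3. NSC 1, 2 and 3 read 8.66, 7.54 and 9.74. The glioma lines were tightly grouped, spanning 0.67, while the NSC cultures differed by more than that from each other, and a gap of 1.32 separated the lowest line from the highest NSC culture. The Erbb2 group averaged 11.41 ± 0.34 (SD, n = 3), the Hras group 11.53 ± 0.27 (SD, n = 3) and the NSC group 8.65 ± 1.10 (SD, n = 3). Against NSC the mean of both glioma groups was higher by 2.82 (SE 0.42, 95% confidence interval 1.88 to 3.76), a 7.08-fold difference, larger in size than that of all but 0.27% of genes. Prrx1 was the 1 factor of 9 that passed the threshold in that comparison (limma adjusted p = 0.0431), in which 0.353% of all genes were called. The call was kept without NSC 3 (adjusted p = 0.034) and lost without any other single array (adjusted p = 0.0523 to 0.132), with quantile normalization (adjusted p = 0.0778), with centred arrays (adjusted p = 0.0615) and in the table of probe set intensities (adjusted p = 0.0764). The change itself stayed between 2.27, without NSC 2, and 3.37, without NSC 3.

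Prrx2, the paralogue that overlaps with Prrx1 in limb and craniofacial development, went another way. It read 6.04, 6.39 and 6.87 in the Erbb2 lines, 6.59, 7.02 and 8.10 in the Hras lines and 7.39, 7.94 and 7.33 in NSC. All 3 Erbb2 lines and Hras lines 1 and 2 were below all NSC cultures, and Hras 3 was above them all. The difference from NSC was -1.12 (SE 0.40) for the Erbb2 lines and -0.32 (SE 0.40) for the Hras lines, and neither passed the threshold (limma adjusted p = 0.446 and 0.83). Of all pairs among the 9 factors, Prrx1 and Prrx2 lay farthest apart over the arrays. The measure was the root mean square difference after each gene was centred on its mean, 1.85 for this pair. That distance grows with a gene's own spread, and Prrx1 had the widest range of the 9 factors, 4.19.

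The stretches upstream of the factors that stood above NSC in all lines are shown here, together with that of Snai1, since E-boxes are the sites that Snail, Zeb and Twist factors bind. These are the 250 bases before the annotated start site from RefSeq, build GRCm38.p6, written 5′ to 3′ on the gene's strand. Capitals mark CACCTG (or CAGGTG, the same site on the other strand), an E-box bound by Snail and Zeb factors, and AACCACA (or TGTGGTT), a Runx site.
Prrx1, chr1:163313651-163313900, minus strand: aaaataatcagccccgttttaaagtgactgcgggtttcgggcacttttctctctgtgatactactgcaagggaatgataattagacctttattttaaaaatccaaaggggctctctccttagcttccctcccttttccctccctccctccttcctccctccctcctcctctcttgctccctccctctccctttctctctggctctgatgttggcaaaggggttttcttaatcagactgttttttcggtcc
Twist1, chr12:33957421-33957670, plus strand: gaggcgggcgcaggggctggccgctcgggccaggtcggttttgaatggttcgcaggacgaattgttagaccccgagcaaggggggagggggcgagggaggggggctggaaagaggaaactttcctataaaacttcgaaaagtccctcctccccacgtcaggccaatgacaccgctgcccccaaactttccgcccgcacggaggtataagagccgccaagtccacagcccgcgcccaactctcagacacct
Runx2, chr17:44814628-44814877, minus strand: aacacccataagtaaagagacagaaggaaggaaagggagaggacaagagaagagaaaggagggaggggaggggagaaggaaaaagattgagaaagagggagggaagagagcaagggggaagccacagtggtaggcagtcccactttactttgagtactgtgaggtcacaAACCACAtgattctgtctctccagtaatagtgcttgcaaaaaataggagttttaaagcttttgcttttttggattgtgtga
Snai1, chr2:167537945-167538194, plus strand: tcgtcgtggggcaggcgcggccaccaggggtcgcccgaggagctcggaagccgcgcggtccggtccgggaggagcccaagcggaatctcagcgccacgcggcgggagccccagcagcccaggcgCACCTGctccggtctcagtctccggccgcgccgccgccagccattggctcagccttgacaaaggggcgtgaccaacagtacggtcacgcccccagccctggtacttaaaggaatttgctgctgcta

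The E-box occurred at base -126 of Snai1 and in none of the other stretches, out of 10 start sites of 7 factors searched, and the Runx site at base -81 of Runx2 alone. The search covered both strands, and the motifs did not overlap each other. Of all 32851 stretches of this length in the table, 17.2% held the E-box and 4.4% the Runx site. The stretches differed in composition, with 47.6% G and C in Prrx1, 44.8% in Runx2, 62.4% in Twist1 and 70.0% in Snai1.

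Twist1, which specifies head mesenchyme and represses Cdh1, read 8.10, 7.01 and 7.77 in the Erbb2 lines, 7.83, 7.83 and 8.22 in the Hras lines and 6.73, 6.46 and 6.05 in NSC. All lines were above NSC, but only by 0.28 between Erbb2 2, the lowest line, and NSC 1, the highest culture. The mean over both glioma groups was higher than NSC by 1.38 (SE 0.27, 95% confidence interval 0.77 to 1.99), with a limma adjusted p = 0.0957. Twist2, the paralogue active in dermis and bone precursors, read 6.43, 5.89 and 7.10 in the Erbb2 lines, 6.50, 6.88 and 8.47 in the Hras lines and 6.42, 5.82 and 6.19 in NSC. Hras 3 stood out at 2.33 above the NSC mean, Erbb2 3 was 0.96 above it, and the other lines lay between -0.25 and 0.74. Its Hras lines were all above NSC, with Hras 1 leading NSC 1 by little, and centring the arrays ended that separation. The mean change of Twist2 was 0.74 (SE 0.44), with an interval from -0.25 to 1.72 that includes no difference, and it was 0.44 without Hras 3.

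Snai1, which represses Cdh1 at the start of a transition, split the lines within each oncogene. Erbb2 1, 2 and 3 read 6.94, 6.56 and 8.58, Hras 1, 2 and 3 read 6.92, 8.23 and 8.58, and NSC 1, 2 and 3 read 7.09, 6.37 and 7.58. Erbb2 3, Hras 2 and Hras 3 were 1.57, 1.21 and 1.57 above the NSC mean and higher than any NSC culture. The other 3 lines were within 0.45 of the NSC mean and below it, inside the NSC range. The SD among the 3 Erbb2 lines was 1.07, against a group difference from NSC of 0.35 (SE 0.60), and the Hras lines differed from NSC by 0.90 (SE 0.60), or 0.56 without Hras 3 and 1.39 without Hras 1. Neither difference passed the threshold.

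Snai2, the neural crest member of the family, also called Slug, read 5.39, 5.71 and 7.10 in the Erbb2 lines, 6.73, 7.003 and 6.62 in the Hras lines and 5.75, 5.74 and 5.63 in NSC. All Hras lines and Erbb2 3 were above NSC, while Erbb2 2 was within the NSC range and Erbb2 1 below it. It was the dimmest signal relative to the limit: of the 81 values of the 9 factors, the 2 under the dim limit of their array were Snai2 in Erbb2 1 and in NSC 1. With a single limit for all arrays, 5 values were under it, all of Snai2. The Hras lines were higher than NSC by 1.08 (SE 0.39, 95% confidence interval 0.19 to 1.97), with a limma adjusted p = 0.326. The NSC values of Snai2, 5.63 to 5.75, lay below the limit in NSC 1 (6.30) and little above it in NSC 2 and 3 (5.46 and 5.61).

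Zeb1, which is expressed in neural progenitors and represses polarity and junction genes, did not follow the oncogenes. It read 10.40, 10.14 and 11.37 in the Erbb2 lines, 10.59, 11.54 and 10.01 in the Hras lines and 10.05, 10.96 and 11.40 in NSC. The highest and the lowest array were both Hras lines, and each group's range covered most of the others'. The mean difference from NSC was -0.13 with an interval from -1.10 to 0.84, and a difference within those bounds cannot be told from none with these arrays. Zeb2, which guides neural crest and interneuron development, read 8.84, 8.50 and 9.31 in the Erbb2 lines, 8.31, 9.80 and 8.92 in the Hras lines and 6.75, 8.36 and 8.87 in NSC. NSC 1 was far below the rest, and NSC 2 and 3 were within the range of the lines. The mean change was 0.95 (SE 0.48, 95% confidence interval -0.14 to 2.05), and the NSC 1 array also had the lowest quality weight in limma's estimate, 0.29 against 0.76 to 1.67 elsewhere. Without NSC 1 the Zeb2 change was 0.33, and with array weights 0.46, so that most of the 0.95 rested on that array.

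Runx2, the master regulator of bone formation, read 7.68, 7.16 and 7.73 in the Erbb2 lines, 7.23, 7.53 and 7.69 in the Hras lines and 6.52, 6.46 and 6.77 in NSC. The Hras readings lay inside the range of the Erbb2 readings, and a gap of 0.39 separated the lowest line from the highest NSC culture. The SDs were 0.32, 0.23 and 0.17 (n = 3 each) in the order Erbb2, Hras and NSC. The mean change was 0.92 (SE 0.20, 95% confidence interval 0.47 to 1.37), a 1.89-fold difference with a limma adjusted p = 0.135. Its profile over the arrays was closest to that of Twist1, with a root mean square difference of 0.39 after each gene was centred on its mean.

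**Figure D2:**
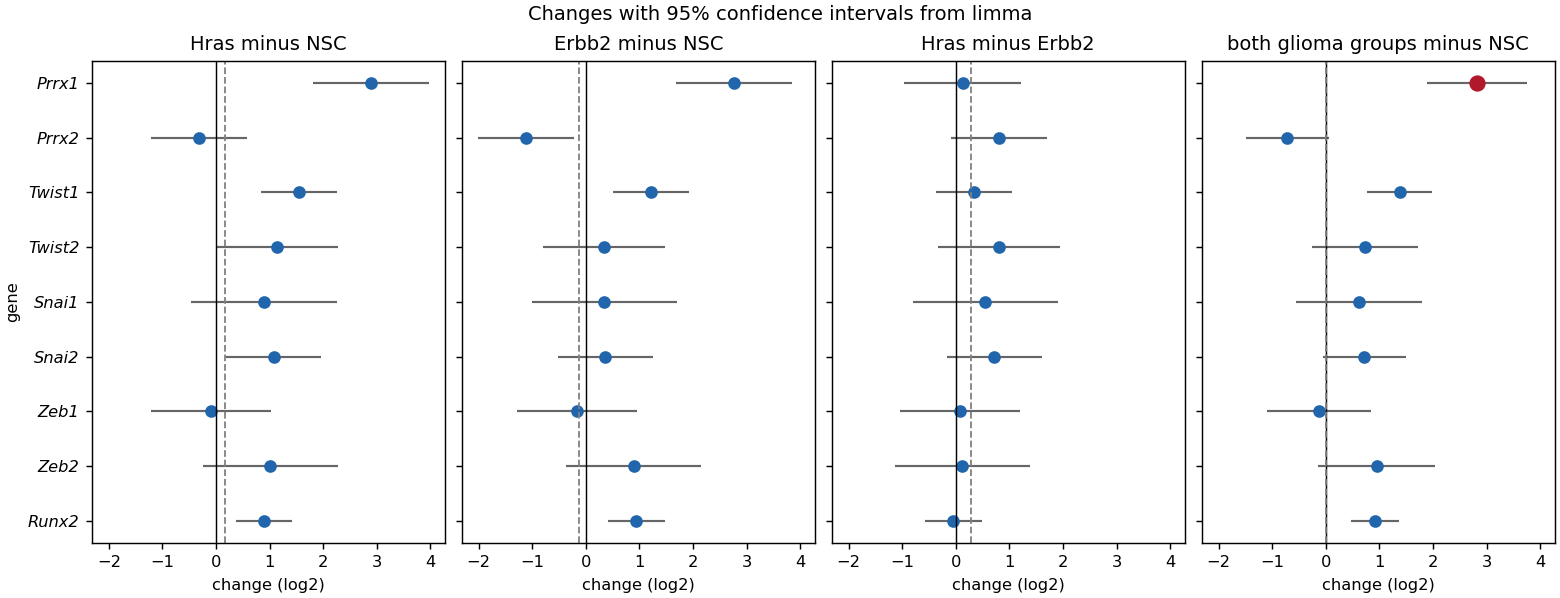
Log2 change of each factor in 4 comparisons (horizontal axis, panels), with 95% confidence intervals from limma. The dashed line is the median change of all genes and the red point marks the call, Prrx1 in the mean of both glioma groups. All 9 intervals of Hras minus Erbb2 include 0.

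Against NSC, 7 of the 9 factors had a positive change in the Hras lines and in the Erbb2 lines, with medians of 1.02 and 0.36. Of all genes, 68.5% and 36.7% had a positive change. These comparisons share the NSC arrays. No factor was called in either with limma, where 0% and 0.00967% of all genes passed, that is 0 and 2 of 20690. At an unadjusted p under 0.05, 2481 and 1909 genes and 5 and 4 of the factors passed. The 4 in the Erbb2 lines were Prrx1, Twist1 and Runx2, which were higher, and Prrx2, which was lower. For the mean of both groups the factors' median change was 0.74 beside 0.01 for all genes, and it was 0.70 after quantile normalization and 0.56 with centred arrays.

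Levels did not overlap, with every Hras line above every NSC culture, for 5 factors (Prrx1, Twist1, Twist2, Snai2 and Runx2), as for 11.9% of all genes. The Erbb2 lines were all above NSC for Prrx1, Twist1 and Runx2, as for 5.09% of all genes, and the 6 lines together for the same 3 factors, as for 2.87%. With centred arrays the first count was 4, without Twist2, beside 3.96% of all genes, and the other counts were 3 and 3, beside 5.24% and 1.75%. None of the 9 factors had all Hras lines above all Erbb2 lines, which 25.6% of all genes did.

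Between the oncogenes, the Hras lines were higher than the Erbb2 lines for 8 of 9 factors, at a median of 0.33, where the median gene was 0.29 higher. The same direction held for 78.8% of all genes. With limma 0 factors and 0% of all genes were called, and 2625 genes and 0 factors had an unadjusted p under 0.05. With centred arrays 4 factors were higher and 5 lower, with a median of -0.09, and after quantile normalization 6 were higher. Prrx2, Twist2, Snai2 and Snai1 had the widest differences as deposited, 0.80, 0.81, 0.72 and 0.55, with SEs of 0.40, 0.50, 0.39 and 0.60. Without Hras 3 those of Prrx2, Twist2 and Snai1 were 0.37, 0.21 and 0.21, and without Erbb2 1 that of Snai2 was 0.38. The intervals were wide for the others too: for Prrx1 the difference was 0.13, with bounds of -0.96 and 1.21, and for Runx2 it was -0.04, with bounds of -0.57 and 0.48.

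**Figure D3:**
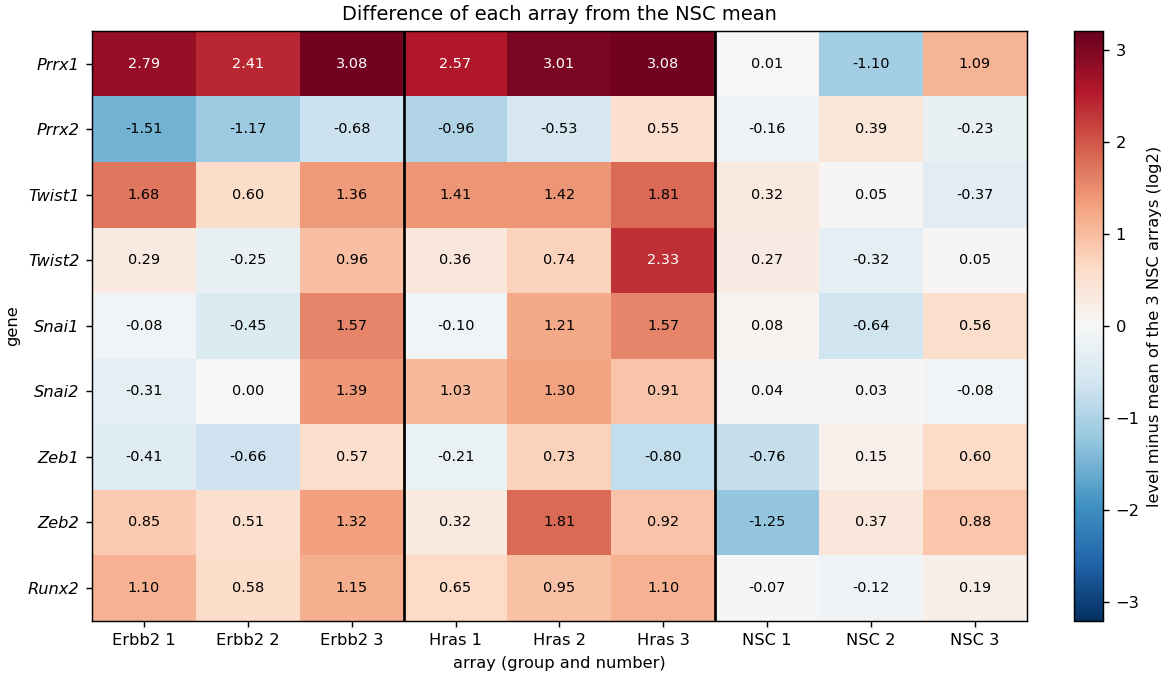
Difference of each array from the mean of the 3 NSC arrays (log2, colour and number), with factors in rows and arrays in columns. Red is above and blue below the NSC mean. The Prrx1 row is red in all 6 lines (2.41 to 3.08), and the columns of Erbb2 3, Hras 2 and Hras 3 hold most of the other dark red cells.

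Read by line, the factors varied among the lines of each oncogene. The mean difference from NSC over the 9 factors was 0.49, 0.17 and 1.19 in Erbb2 1, 2 and 3, and 0.56, 1.18 and 1.28 in Hras 1, 2 and 3. The number of factors above all NSC cultures was 4, 3 and 7 in the Erbb2 lines and 5, 8 and 8 in the Hras lines. Over all genes, 19.9%, 13.0% and 20.2% exceeded the NSC maximum in the Erbb2 lines and 27.2%, 47.6% and 24.4% in the Hras lines, the largest share being that of Hras 2. With centred arrays these shares were 13.3% to 20.0% in all lines, and the factors above the NSC maximum were 4, 3 and 7 in the Erbb2 lines and 4, 7 and 6 in the Hras lines. The highest reading of each factor fell on Erbb2 3 for 3 factors, on Hras 2 for 2 and on Hras 3 for 4. Below the lowest NSC culture lay 2, 1 and 1 factors in the Erbb2 lines and 1 in each Hras line.

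Inputs of the TGF-beta pathway were read next. Of 20 ligands, receptors, Smads and modulators, 20 had a positive change for the mean of both groups, with a median of 0.49. With quantile normalization it was 18 of 20 and with centred arrays 17 of 20, and in the Erbb2 lines alone 15 of 20. Of all genes, 51.4% had a positive change for the mean of both groups as deposited, and 36.7% in the Erbb2 lines. None of the 20 was called with limma, and 6 had an unadjusted p under 0.05, all of them higher, beside 2078 of 20690 genes in either direction. Tgfbr2, the receptor that binds the ligand, averaged 8.54 ± 0.76 (SD, n = 3) for Erbb2, 8.90 ± 0.34 (SD, n = 3) for Hras and 7.57 ± 0.37 (SD, n = 3) for NSC, a change of 1.15 (limma adjusted p = 0.243). The ligand gene Tgfb3 differed by 1.70 (limma adjusted p = 0.257) and was at the NSC level, 5.99, in Erbb2 2.

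The list of partners and co-repressors of the factors includes the E proteins that pair with Twist factors and the Id proteins that sequester E proteins. It also includes the Cbfb subunit of Runx factors and the Ctbp, Kdm1a and Hdac co-repressors. The rest are Hand1, Hand2, Runx1, Runx3, Rcor1, Lmo4, Fhl2, Scrt1, Scrt2, Snai3 and Prrxl1, some of which are relatives of the factors. Of 24 genes, 18 had a positive change, 14 with quantile normalization and 9 with centred arrays, the median was 0.09 and none was called. Lmo4, a LIM-only cofactor, was higher by 0.68 (limma adjusted p = 0.3), and Id2 by 0.72 (limma adjusted p = 0.498).

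Some of the epithelial genes that Snail and Zeb factors repress were dim on all arrays, and others were dim on none. Cdh1 read 5.39 to 5.97 over the 9 arrays and was under the dim limit on 3 of them. Of the 28 genes of this list, 11 were above the limit on all arrays, and 4 (Ocln, Esrp1, Grhl2 and Mal2) were under it on all. Changes for the mean of both groups were positive for 12 and negative for 16, with a median of -0.01. The balance depended on the scaling, with 15 positive and 13 negative after quantile normalization and 4 positive and 24 negative (median -0.19) with centred arrays. The groups also went apart as deposited, with 24 of 28 positive in the Hras lines and 24 of 28 negative in the Erbb2 lines. All genes leaned the same ways, with 68.5% positive in the Hras lines and 36.7% in the Erbb2 lines. After quantile normalization 16 of 28 were positive in the Hras lines and 12 of 28 in the Erbb2 lines. With limma 0 of 28 were called, and 1 had an unadjusted p under 0.05. Where a gene lies at background in NSC, these arrays cannot show a further fall. The smallest p-values went to higher junction genes, Cldn1 with a change of 1.11 (limma adjusted p = 0.455) and Jup, plakoglobin, with 0.77 (limma adjusted p = 0.582). Cldn1 was under the limit on 3 arrays.

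Of 30 effector genes that mesenchymal cells use, 24 had a positive change for the mean of both groups, 21 with quantile normalization and 16 with centred arrays, and the median was 0.26 as deposited. Above the median gene lay 23 of 30 as deposited and 21 of 30 after quantile normalization. Centring the arrays shifts all genes alike, so it cannot change this count. Against NSC, 26 of 30 were positive in the Hras lines, beside 68.5% of all genes, and 11 of 30 in the Erbb2 lines, beside 36.7%. None was called, and 4 had an unadjusted p under 0.05 on the higher side and 3 on the lower side, beside 2078 of 20690 genes in either direction. Vim, the intermediate filament vimentin, was high on every array, 12.17 to 12.86. Cdh2, which encodes N-cadherin, read 9.71 to 10.68 in Erbb2 lines, 10.08 to 11.52 in Hras lines and 8.998 to 10.65 in NSC. Fn1, fibronectin, ranged from 6.81 to 11.46 and was high in Erbb2 3, Hras 2 and Hras 3 (10.28, 11.46 and 11.23) but also in NSC 3 (10.45). Vim, Cdh2 and Fn1 were named after their values were seen, as common markers of the transition. The smallest p-values belonged to contractile genes that were lower in the lines. Acta2, smooth muscle actin, differed by -2.27 (limma adjusted p = 0.0655) and Tagln, transgelin, by -1.99 (limma adjusted p = 0.112). Mmp3, Lum, Dcn, Lox and Fap were under the dim limit on all 9 arrays.

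Most of the skeletal genes that Runx2 activates in bone were dim on part or all of the arrays. Of 18, 4 were above the limit on all arrays, and Ibsp, Mmp13 and Mepe were under it on all. Changes were positive for 10 and negative for 8, or for 6 and 12 with centred arrays, the median was 0.06 and none was called. Spp1, the osteopontin gene, read 9.22, 8.60 and 9.67 in the Erbb2 lines, 9.74, 11.37 and 13.11 in the Hras lines and 8.66, 5.30 and 7.97 in NSC. It differed by 2.98 (SE 0.84, limma adjusted p = 0.233), with Hras 3 the highest and NSC 2, under its dim limit, the lowest. Smpd3, a sphingomyelinase required in bone, differed by -0.48 (limma adjusted p = 0.507).

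Among 40 other transcription factors of mesenchyme and neural crest, 28 had a positive change, 27 with quantile normalization and 18 with centred arrays, with a median of 0.16. Tfap2a, a neural crest factor, was the 1 gene of that list called. It read 8.88, 8.10 and 7.92 in the Erbb2 lines, 7.70, 8.45 and 7.93 in the Hras lines and 5.72, 5.72 and 6.85 in NSC, with NSC 1 under the dim limit of its array. Each line was above each NSC culture, and the change was 2.06 (SE 0.34, limma adjusted p = 0.0474). The list had 0 calls with quantile normalization, with centred arrays and without any single array other than Hras 3 or NSC 3.

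**Figure D4:**
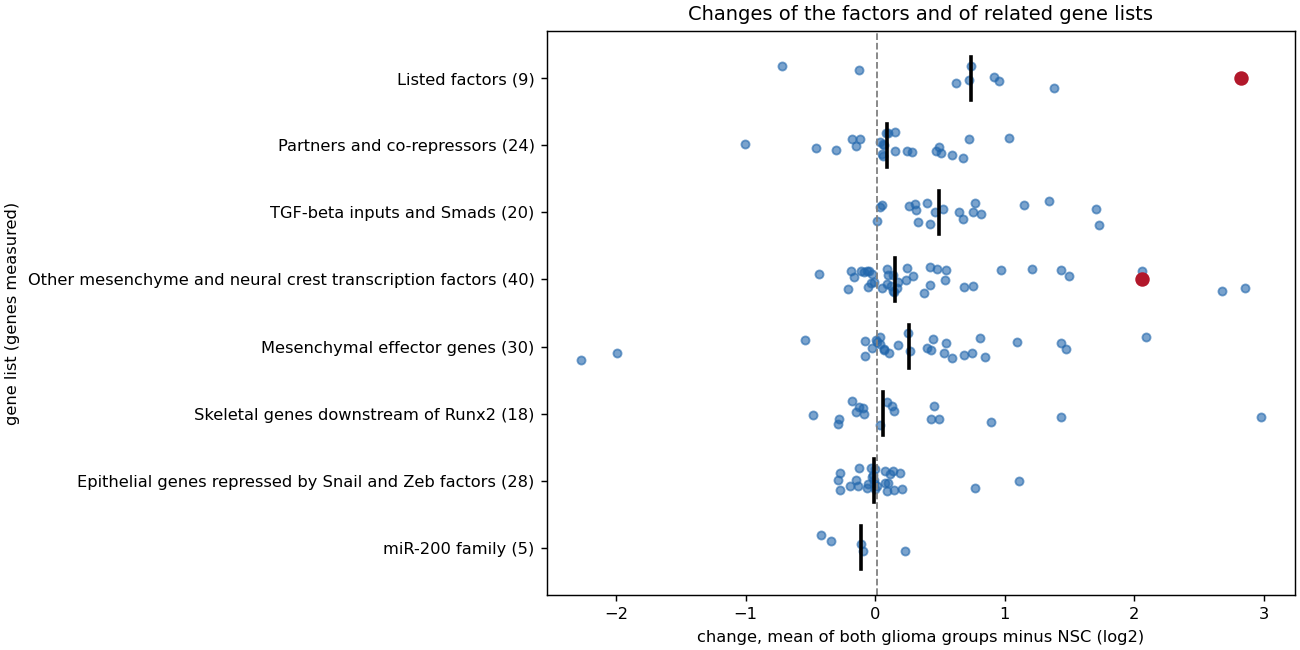
Log2 change for the mean of both glioma groups minus NSC (horizontal axis) of each gene in the factors and the related lists, with the number of genes measured. Black bars are list medians, the dashed line is the median of all genes, and red points are genes called by limma, Prrx1 and Tfap2a.

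The miR-200 family is shown because its seeds, bases 2 to 8 of the mature strand, are the part that pairs with Zeb1 and Zeb2 messages. The mature 3p strands, from RefSeq, follow with the seed in capitals.
mmu-miR-200b-3p: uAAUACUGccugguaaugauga
mmu-miR-200c-3p: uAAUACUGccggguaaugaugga
mmu-miR-429-3p: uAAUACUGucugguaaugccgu
mmu-miR-200a-3p: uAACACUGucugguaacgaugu
mmu-miR-141-3p: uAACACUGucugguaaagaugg
The first 3 share the seed AAUACUG and the last 2 share AACACUG. The array rows carry the names of the miRNA genes, and whether they reflect the mature strands is not known from these data. Dim rows therefore do not show that the mature strands were absent. Mir200a, Mir200b, Mir429 and Mir141 were under the dim limit on all 9 arrays, and Mir200c, which read 5.00 to 5.89, on 8 of them. Changes ran from 1 positive to 4 negative with a median of -0.11, at signals where an order cannot be read. On the same arrays Zeb1 read 10.01 to 11.54.

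The factors also mark fibroblasts and vessel-associated cells, so the markers of other cell types were read on the same arrays. Of 12 fibroblast and meningeal markers, Dcn, Lum and Dpt were under the dim limit on all 9 arrays, and 8 of 12 had a positive change, or 4 of 12 with centred arrays. Their mean level was 6.10 to 6.24 in Erbb2 lines, 6.34 to 6.50 in Hras lines and 5.58 to 6.00 in NSC. The list includes Pdgfra, which oligodendrocyte precursors share and which was called higher (limma adjusted p = 0.0246). Its change of 4.92 is measured against a signal near background, since Pdgfra was under the dim limit in NSC 1 and 3. Of 11 mural cell markers, Anpep and Higd1b were dim on all arrays, Rgs5 on 8 and Pdgfrb on 4, and the mean level was 5.78 to 6.07, 5.99 to 6.39 and 5.68 to 5.99 in the 3 groups in the same order. None of the mural markers was called: Notch3 differed by -1.06 (limma adjusted p = 0.281) and Mcam by 3.07 (limma adjusted p = 0.301). Of 11 endothelial markers, Cdh5, Tek, Emcn and Slco1a4 were dim on all arrays, and of 11 leukocyte markers Aif1, Itgam, Ptprc and Tyrobp. Other markers were above the limit on all 9 arrays: Cldn5, Flt1 and Vwf of the endothelial list, and Cx3cr1, Cd68 and Trem2 of the leukocyte list. So were 3 of the mural and 4 of the fibroblast and meningeal markers. No endothelial or leukocyte marker was called: Cldn5 differed by -0.29, Vwf by -0.23, P2ry12 by 0.76 and Fcer1g by 0.34. The leukocyte list as a whole leaned the other way from the 2 markers named, with 3 positive and 8 negative changes (median -0.11). The endothelial list had 5 positive and 6 negative changes (median -0.07). The mural list had 7 positive and 4 negative (median 0.04), or 3 and 8 with centred arrays. Neural stem cell markers had a mean level of 8.84 to 9.16, 8.79 to 9.46 and 9.34 to 10.15, a negative change for 10 of 12 and a median change of -0.52. Of that list 0 of 12 were called, with Gfap at -1.69 (limma adjusted p = 0.318) and Pax6 at -1.42 (limma adjusted p = 0.324). The part of these cell types in the levels of the factors was not tested.

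For the 6 factors whose arrays spanned 2 or more, the 4 genes with the nearest profile were sought among 19052 genes by the root mean square difference over the 9 arrays, each gene centred on its own mean. This distance grows with a gene's own spread. Prrx1, whose SD over the 9 arrays was 1.44, lay nearest to Tfap2a, Ddr2, Dnm1 and Fam129b, at 0.60 to 0.63. Ddr2 encodes a collagen receptor and Dnm1 a dynamin. Snai1 lay nearest to Fbxl21, Loxl1, Tgfbr3 and Antxr2, at 0.27 to 0.30. Loxl1 encodes a lysyl oxidase that crosslinks elastin, and Tgfbr3 the TGF-beta co-receptor betaglycan. Twist1 lay nearest to Ugcg, Ankrd34a, Plk1 and Tnfaip3 (0.18 to 0.27) and Twist2 to Prokr2, Stxbp2, Cbr2 and Eif4e3 (0.16 to 0.21). Zeb2 lay nearest to Pdgfa, Igf1r, Ano6 and Zcchc14 (0.18 to 0.23) and Prrx2 to Nudt4, Ackr3, Smpdl3b and Gstt3 (0.23 to 0.30). Among the factors themselves the nearest pairs were Twist1 with Runx2 at 0.39 and Twist2 with Snai1 at 0.46, and the farthest was Prrx1 with Prrx2 at 1.85. The 9 arrays share their groups and their scale, so these distances describe the table and carry no test.

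**Figure D5:**
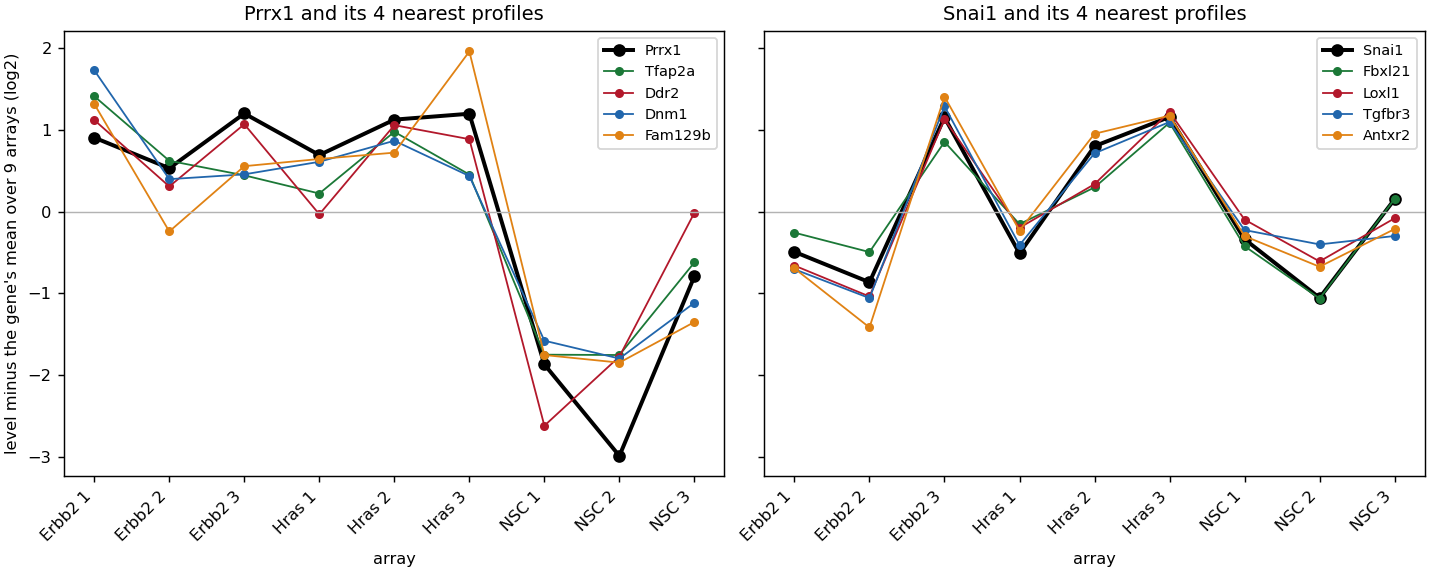
Level minus the gene's mean over 9 arrays (log2, vertical axis) for Prrx1 and Snai1 in black and their 4 nearest genes in colour, by array. The Prrx1 set is below its mean on all 3 NSC arrays, and the Snai1 set peaks on Erbb2 3, Hras 2 and Hras 3.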

How the data were processed

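Expression was measured on 9 arrays, 3 per group. The authors deposited log2 values for 20715 genes and linear intensity values for 35512 probe sets, of which 1 row is empty. How the arrays were background-corrected and normalized, and how a gene's probe set was picked, is not given in the sources used here. The log2 value of 20106 genes, 8 of the factors among them, equalled that of exactly 1 probe set within 0.0001, and 519 genes, among them Runx2, equalled none. Rows with a number in place of a symbol (25) were left out, and 0 value columns were unmapped. Groups and array numbers follow the titles, although the description of Hras 3 has another number.

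All 20690 genes were fitted with limma 3.58.1 in R 4.3.3 (lmFit and eBayes) on 3 group means, with 6 residual and 3.12 prior degrees of freedom, and p-values were adjusted over all genes (Benjamini-Hochberg, threshold 0.05). The fit was tested on simulated data. The number of arrays limits the precision. The factors and the 14 gene lists (241 of 242 genes matched) were chosen with earlier results of these data known, and the miR-200 list after the table was seen. From each list the text names every gene called, at most 4, or the 2 with the smallest p for both glioma groups. Genes outside that rule are marked. Alternatives were quantile normalization, centred arrays, array weights, a variance trend, a filter on dim genes, the value table, a replicate block, the compared groups alone and leaving out each array. Same-numbered arrays did not deviate together in 5 of 9 pairs, a count that includes pairs with NSC. Between Erbb2 and Hras lines 1, 2 and 3 the correlations were 0.34, -0.34 and 0.44. The main fit did not use the numbers as pairs, and these values do not settle whether they are.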

Additional observations from a re-analysis of the deposited data

Results flagged for a closer look

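Twist1 in Erbb2 2 was set apart from the other 5 glioma lines. It read 7.01 there and 7.77 to 8.22 in the others, and the gap to the nearest line was 0.627 of the whole range of the 6 lines, just past Dixon's 95% critical value for 6 samples. Such a value turns up by chance in about 1 in 20 groups, and 9 factors were examined.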

How the results depend on the processing

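Of the factors' changes under the alternatives, 563 kept direction and side of the threshold, 11 lost the call (all of Prrx1) and 25 changed sign, the latter among changes of at most 0.36 in size as deposited. The count of factors called for both glioma groups against NSC, 1 as deposited, was 0 with quantile normalization, 0 with centred arrays, 0 in the value table and 0 to 1 when each array was left out. With the replicate block it was 1. Over all genes that comparison had 73 calls, but 12, 23 and 19 with quantile normalization, centred arrays and the value table, 92 with the block and 0 to 70 without single arrays. For Hras minus NSC there were 0 calls, but 70 with array weights, 20 in the compared groups alone, 9 with the block, 1 or 2 under the other scalings and 0 to 76 without single arrays. For Erbb2 minus NSC there were 2, but 37, 8 and 27 in the same order, 7 with a variance trend, 4 without dim genes, 1 with quantile normalization, 0 in the value table and 0 to 13 without single arrays. Hras minus Erbb2 had 0 calls throughout, and no factor was among the calls of these 3 comparisons under any alternative run. The factors' median change for Hras minus NSC, 1.02, was 0.62 with centred arrays and 0.80 to 1.36 without single arrays, and that for Erbb2 minus NSC, 0.36, was 0.019 to 0.74. For Hras minus Erbb2 the median, 0.33, was 0.030 with quantile normalization, -0.085 with centred arrays and 0.026 to 0.47 without single arrays. In that comparison Zeb1 was -0.012 and -0.34 and Zeb2 -0.052 and -0.29 under the same scalings. Prrx1 was -0.29 and Twist1 -0.085 with centred arrays, and Runx2 0.014 with array weights. Leaving out single arrays gave ranges there of -0.34 to 0.44 for Zeb1, -0.27 to 0.47 for Zeb2, -0.048 to 0.29 for Prrx1 and -0.23 to 0.082 for Runx2. Against NSC such ranges crossed 0 for Prrx2 in Hras lines (-0.75 to 0.0066), for Snai1 (-0.26 to 0.74) and Snai2 (-0.15 to 0.70) in Erbb2 lines, and for Zeb1 in Hras lines (-0.50 to 0.26), Erbb2 lines (-0.54 to 0.13) and both (-0.51 to 0.17). Values under the dim limit numbered 2, or 1 with the 90th percentile and 5 with the pooled limit. By the numbers in the titles, 4 of 9 arrays correlated best with their own number. Deviations from the group means correlated at 0.34, -0.34 and 0.44 between Erbb2 and Hras lines 1, 2 and 3. Whether the numbers pair the cultures is not settled. The deposited column names also begin with a number, which Erbb2 and Hras lines share but no NSC culture shares with a glioma line. What it stands for is not given in the sources used here. The cause of the shifts between settings was not tested.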

Other observations

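Markers of other brain lineages, which the account of the factors did not need, moved as follows for the mean of both glioma groups against NSC. Of 8 oligodendrocyte precursor markers, 5 were positive (median change 1.32), and Pdgfra, the PDGF receptor of these precursors, was called, as given above. Of 9 neuroblast and neuron markers, 8 were positive (median change 0.61), and none was called, with Dlx1, an interneuron factor, at 0.98 (limma adjusted p = 0.279) and Tubb3, neuronal tubulin, at 1.01 (limma adjusted p = 0.499). Of 7 choroid plexus and ependyma markers, 3 were positive (median change -0.06), or 4 after quantile normalization and 1 with centred arrays, and Otx2, a choroid plexus factor, was called lower. Otx2 read 7.78, 7.59 and 6.07 in NSC 1, 2 and 3 and was under the dim limit on all 6 glioma arrays, so its change of -2.25 (limma adjusted p = 0.0456) is measured against a signal near background.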
